A study of Mus musculus with 6 samples.

Results

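The 10 genes described here encode the core of the Nodal, Lefty and Activin branch of the TGF-beta family: the ligand *Nodal*, the secreted inhibitors *Lefty1* and *Lefty2*, the co-receptor *Tdgf1*, the receptors *Acvr1b* and *Acvr2b*, the signal transducers *Smad2* and *Smad3*, the inhibitory *Smad7* and the nuclear co-repressor *Skil*. They were chosen by name, with earlier results of these data known, and all 10 were found among the 22380 gene identifiers measured. RNA-Seq was performed on mouse embryonic stem cells (mESC), 3 *Ctrl* and 3 *Tet iTKO* lines, each derived from the blastocyst of a different embryo, so that tests measure the spread between lines. *Ctrl* lines were CreERT2 wt/ki and carried 1 copy of the *Gt(ROSA)26Sor* tm1Ytchn allele, which switches on H2B-EGFP after Cre recombination. *Tet iTKO* lines carried both of these and were also *Tet1/2/3* fl/fl, so that Cre recombination deletes part of all 3 genes for the TET dioxygenases, which oxidize methylated cytosine in DNA. CreERT2, a Cre that works only once 4-hydroxytamoxifen (4-OHT) is given, was driven by the broadly active ubiquitin C promoter. Both groups received 1 µM 4-OHT for 2.5 days, were cultured for 4 days more on fibroblast feeders with the GSK3 inhibitor CHIR99021 and the MEK inhibitor PD0325901, and were sorted on day 6.5 as live cells with GFP and CD326 and without Thy1.2, the antigen that marks the feeders.

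Nodal binds a complex of the type I receptor ACVR1B, the type II receptor ACVR2B (or ACVR2A) and the co-receptor CRIPTO, the product of *Tdgf1*, whereas Activin needs no co-receptor. The receptors phosphorylate SMAD2 and SMAD3, which enter the nucleus with SMAD4 and act at target genes with partners such as FOXH1. Nodal signalling raises the transcription of *Nodal* itself and of its inhibitors *Lefty1*, *Lefty2*, *Smad7* and *Skil*, and it is known for patterning the epiblast and inducing mesendoderm.

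In *Tet iTKO* mESC, *Nodal*, *Lefty1*, *Lefty2*, *Acvr2b* and *Smad3* rose. None of the 9 genes tested was lower at an adjusted p under 0.05 on the deposited values. *Smad7* was lower at that level once values were corrected for the GC content and length of transcripts. *Lefty1* rose 2.04-fold and *Smad3* 2.59-fold in the ratio of group means, and the other 3 rose between 1.22-fold and 1.45-fold. Of the 10 genes, 9 had the mean of at least 10 normalized counts that testing required, all 9 of them in both groups, and *Acvr1b* did not. With limma on log2(normalized count + 1) and Benjamini-Hochberg adjustment over all 10524 genes tested, 5 of the 9 had an adjusted p under 0.05, all higher in *Tet iTKO*, against 34.8% of all genes tested in either direction and 16.4% higher. The median log2 fold change over the 9 was 0.34, against 0.01 for all genes tested. Since the genes were chosen with earlier results of these data known, these comparisons describe the set and do not test it. With a log2 fold change of at least 1 as well, 2 of the 9 were called, *Lefty1* and *Smad3*, against 6.25% of all genes. The fold changes of all genes rose with GC content (Spearman correlation across genes 0.258) and transcript length (0.293, 10457 genes), and after a correction for both, 6 of the 9 were higher (*Tdgf1* as well) and 1 lower (*Smad7*), against 12.5% and 14.0% of all genes and 26.5% in either direction. None of the 9 was lower at an unadjusted p under 0.05 on the deposited values.

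**Figure D1:**
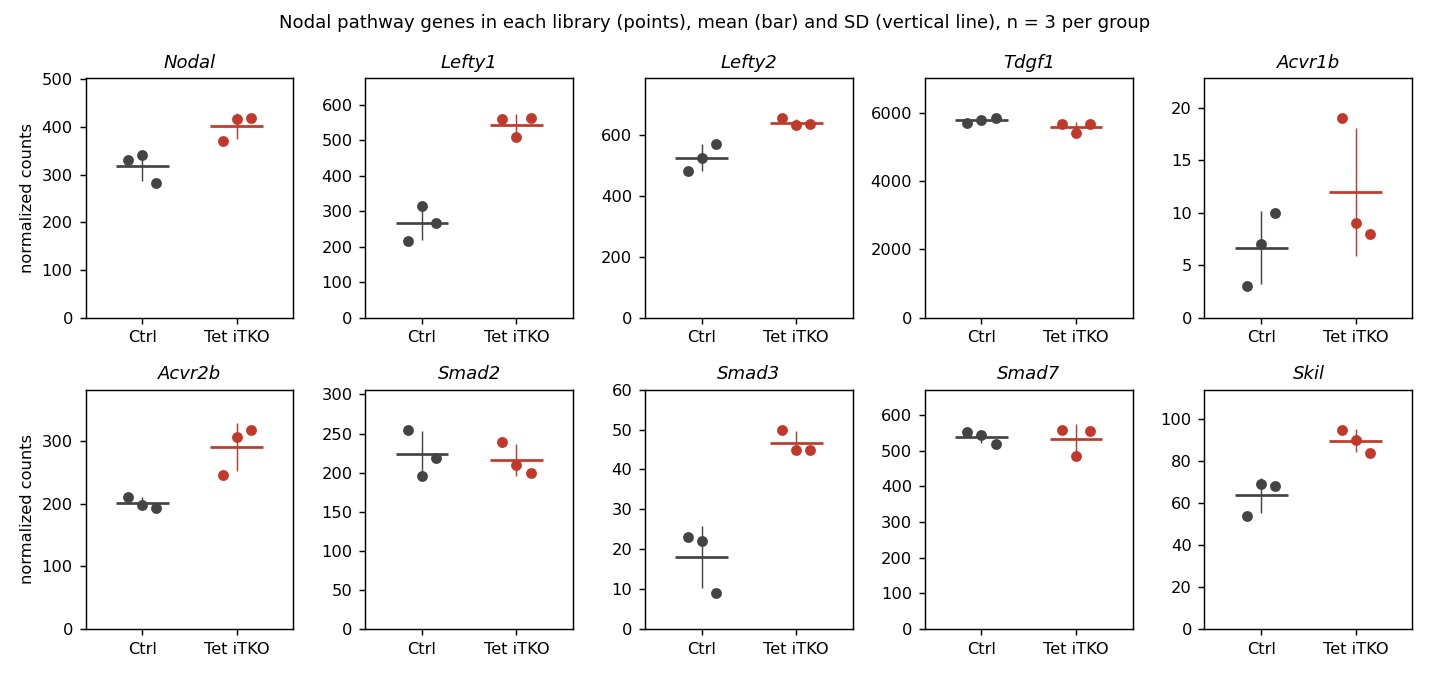
Normalized counts of the 10 genes in each library (y axis, from 0, with its own scale in each panel) for 3 Ctrl and 3 Tet iTKO lines (x axis). Points are libraries, horizontal bars group means and vertical lines 1 SD. The groups do not overlap for Nodal, Lefty1, Lefty2, Acvr2b, Smad3 and Skil, with Tet iTKO higher, and for Tdgf1, with Tet iTKO lower, an order that the correction for GC content and length and quantile normalization turned around in the fitted change.

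Since TET enzymes act mainly on the cytosines of CpG dinucleotides, the CpGs of the upstream sequence are shown for 3 of the genes. These are the ligand and the SMAD that rose and, for contrast, the co-receptor, which did not pass the test on the deposited values. That contrast depends on the scaling. *Tdgf1* was called higher after the correction for GC content and length (log2 fold change 0.20) and with quantile normalization (0.13). Each sequence is the 250 bases before the gene's start on its own strand, from RefSeq on GRCm38.p6, with CpGs in capitals. *Nodal* lies at chr10:61417722-61417971 on the plus strand, *Smad3* at chr9:63757995-63758244 and *Tdgf1* at chr9:110946159-110946408, both on the minus strand.
*Nodal*: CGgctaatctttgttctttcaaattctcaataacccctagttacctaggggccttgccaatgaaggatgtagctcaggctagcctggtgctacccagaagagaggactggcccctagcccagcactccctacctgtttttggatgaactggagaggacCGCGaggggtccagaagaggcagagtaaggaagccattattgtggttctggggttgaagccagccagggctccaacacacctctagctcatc
*Smad3*: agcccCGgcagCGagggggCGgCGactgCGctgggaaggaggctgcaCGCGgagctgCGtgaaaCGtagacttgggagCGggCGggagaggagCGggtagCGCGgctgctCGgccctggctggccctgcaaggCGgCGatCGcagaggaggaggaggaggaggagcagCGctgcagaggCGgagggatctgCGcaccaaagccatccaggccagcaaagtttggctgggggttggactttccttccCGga
*Tdgf1*: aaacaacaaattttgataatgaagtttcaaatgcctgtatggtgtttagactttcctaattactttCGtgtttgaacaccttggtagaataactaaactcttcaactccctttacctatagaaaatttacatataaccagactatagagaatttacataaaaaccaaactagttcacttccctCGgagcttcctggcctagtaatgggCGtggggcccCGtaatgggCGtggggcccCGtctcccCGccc

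The *Nodal* window held 3 CpGs, *Tdgf1* 7, *Smad3* 22, *Acvr2b* 24 and *Acvr1b* 42, with a median of 6 over the 32851 RefSeq windows of this length. Windows were used for these 5 genes, matched by symbol, and none was used for *Lefty1*, *Lefty2*, *Smad2*, *Smad7* and *Skil*. The 3 genes with a window that rose on the deposited values thus had from 3 CpGs, more than 29.0% of all windows, to 24, more than 88.0%. The SMAD-binding letters CAGAC, searched on both strands, occurred once each in the *Tdgf1* and *Acvr2b* windows and not in the other 3, and 42.2% of all windows hold them. TGTGGATT, a sequence that FOXH1 can bind, neither contains nor is contained in CAGAC and was found in none of the 5 windows and in 0.718% of all windows. Only this exact sequence was searched, so other forms of a FOXH1 site would be missed. These are matches of letters, and neither DNA methylation nor binding was measured in the files used.

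Normalized counts summed to 4210784 to 4219665 in *Ctrl* libraries and, without overlap, to 3964824 to 3996522 in *Tet iTKO* libraries, in which more genes were above 0 (14024 to 14363, against 13431 to 13539). The part of this in the results was not tested. An estimated 3.66 to 5.10 M reads on genes lay behind each library. Over the whole gene, in which reads of the floxed exons cannot be set apart, the log2 fold change was 0.21 for *Tet1* (limma adjusted p = 0.026, and -0.02 and not called after the correction), 0.14 for *Tet2* (0.43) and -1.67 for *Tet3* (0.035), which passed the filter on low values through the *Ctrl* group alone. All 8 mESC markers listed were tested, of which 3 were higher and 3 lower in *Tet iTKO*, against 16.4% and 18.4% of all genes, and 1 was higher and 2 lower after the correction. Their summed level was 11421 to 11783 normalized counts in *Ctrl* and 10658 to 10975 in *Tet iTKO*. Of 7 matched markers of primed epiblast, 4 were tested and 3 were higher (sums 3539 to 3744 and 4319 to 4365). After the correction 1 was higher and 1 lower, *Dnmt3a*, which turned from 0.25 to -0.17. Of 6 primitive endoderm markers, 2 were tested and 1, *Gata4*, was higher (sums 24 to 32 and 26 to 47). *Gata4* passed the filter through the *Tet iTKO* group alone and was not called after the correction (limma adjusted p = 0.080). The 9 markers of feeder fibroblasts summed to 280 to 293 in *Ctrl* and 477 to 555 in *Tet iTKO*. Of the 4 tested, 3 were higher, the collagens *Col1a1*, *Col1a2* and *Col3a1*, which were also called after the correction, and *Thy1* was not called. Without the collagens, the 6 others, set apart after their values were seen, summed to 37 to 71 in *Ctrl* and 33 to 55 in *Tet iTKO*, with *Pdgfrb*, *Lum*, *Dcn*, *Postn* and *S100a4* below the filter and none at 0 in every library. Summed levels of the collagens, of the full feeder list that holds them and of the primed epiblast markers were thus higher in every *Tet iTKO* library. Those of the mESC markers were lower, while those of the primitive endoderm markers and of the 6 feeder markers other than collagens overlapped. Abundant genes lead these sums, which do not stand for each gene of a list. Mean *Pou5f1* was 5489.7 in *Ctrl* and 4488.7 in *Tet iTKO*, while the 3 mESC markers called higher were *Esrrb*, *Klf4* and *Epcam*. Both groups had been sorted for CD326, the product of *Epcam*, and against Thy1.2, a form of the product of *Thy1*. Values of *Epcam* and *Thy1* are therefore not independent of the sort. *Dnmt3b* (2044.7 and 2422.3) and *Dnmt3a* (1465.3 and 1740.0) led the primed epiblast sum. The part of these lists in the results for the Nodal pathway genes was not tested. In bulk RNA, a change in the share of cells that express a gene cannot be told apart from a change in RNA per cell.

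*Nodal* (ENSMUSG00000037171.6, chromosome 10 of GRCm38 from 61417972 to 61425338) encodes the ligand. Its normalized counts were 331, 341 and 283 in *Ctrl* lines against 371, 416 and 418 in *Tet iTKO* lines. Every *Tet iTKO* line was above every *Ctrl* line, with *Ctrl* line 3 the lowest. The means were 318 ± 31.0 (SD, n = 3) and then 402 ± 26.6 (SD, n = 3), and the change was 0.34 ± 0.10 (log2 fold change ± standard error, SE, 95% interval 0.13 to 0.54, limma adjusted p = 0.0084). Without *Ctrl* line 3 the log2 fold change was 0.25 and the call was lost (limma adjusted p = 0.067). It was 0.31 after correction for GC content and length (limma adjusted p = 0.019) and 0.18 with that correction by ordinary least squares, when the call was lost (limma adjusted p = 0.17), as it was without a variance trend (limma adjusted p = 0.076).

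The *Lefty* genes encode secreted proteins that bind Nodal and its co-receptor and block signalling. For *Lefty1* (ENSMUSG00000038793.8, chromosome 1 from 180935022 to 180938400), 217, 315 and 268 normalized counts were found in *Ctrl* lines, against 561, 508 and 562 in *Tet iTKO*. The lowest *Tet iTKO* line stood well above the highest *Ctrl* line. The log2 fold change was 1.04 (SE 0.11, 95% interval 0.82 to 1.26, limma adjusted p = 9.1e-10), between means of 267 ± 49.0 (SD, n = 3) and 544 ± 30.9 (SD, n = 3). It was called in all 6 fits that left out a line and in all 11 other alternatives, with log2 fold changes from 0.90 to 1.17. *Lefty2* (ENSMUSG00000066652.5, chromosome 1 from 180893108 to 180899103), the neighbouring paralog, stood at 482, 525 and 570 normalized counts in *Ctrl* lines, against 655, 632 and 635 in *Tet iTKO* lines. Its groups did not overlap either, and the 3 *Tet iTKO* lines lay close together. The means were 526 ± 44.0 (SD, n = 3) and then 641 ± 12.5 (SD, n = 3), and the log2 fold change was 0.29 (SE 0.08, 95% interval 0.12 to 0.45, limma adjusted p = 0.0055). Only the fit without a trend of variance on expression took its adjusted p above 0.05 (limma adjusted p = 0.074).

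The fold change was thus larger for *Lefty1* than for *Lefty2*. Within a library, the log2 ratio of *Lefty2* to *Lefty1* was 1.15, 0.74 and 1.09 in *Ctrl* lines, against 0.22, 0.31 and 0.18 in *Tet iTKO* lines. All 3 *Tet iTKO* ratios were below all 3 *Ctrl* ratios, and the mean moved from 0.99 ± 0.22 (SD, n = 3) to 0.24 ± 0.07 (SD, n = 3). The difference of -0.75 had p = 0.1 in an exact two-sided permutation test, the smallest p that 3 lines against 3 allow, so that this design cannot reach 0.05. The transcripts share sequence, with 17.9% of the 50-base windows of *Lefty1* also in *Lefty2* and 11.6% of those of *Lefty2* found in other genes, nearly all of them *Lefty1*. Since the authors kept unique alignments, reads in those stretches may be missing from both genes, and their levels are uncertain to that extent. The log2 ratio of both *Lefty* genes to *Nodal*, inhibitors to ligand, averaged 1.31 ± 0.24 (SD, n = 3) over *Ctrl* lines and 1.56 ± 0.13 (SD, n = 3) over *Tet iTKO* lines. These groups overlapped, and the difference of 0.25 had p = 0.3 (exact two-sided permutation test).

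*Tdgf1* (ENSMUSG00000032494.8, chromosome 9 from 110939603 to 110946158), which encodes the co-receptor CRIPTO, was by far the most abundant of the 10 genes. The 3 *Ctrl* lines gave 5712, 5805 and 5845 normalized counts, and the *Tet iTKO* lines gave 5663, 5419 and 5672. The lines did not overlap, but the gap between the nearest lines of the groups was small beside their levels. The log2 fold change of -0.05 (SE 0.04, 95% interval -0.14 to 0.03) did not pass the test (limma adjusted p = 0.35). The sign turned with the scaling, to 0.13 with quantile normalization (limma adjusted p = 0.0074) and to 0.20 after the correction for GC content and length (limma adjusted p = 0.00014). A direction for *Tdgf1* therefore depends on the scaling chosen. The pseudogene *Tdgf1-ps1* shares 12.5% of the 50-base windows of *Tdgf1*.

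Of the receptors, *Acvr2b* (ENSMUSG00000061393.6, chromosome 9 from 119402118 to 119434995), the type II receptor that binds the ligand, stood at 211, 197 and 193 normalized counts in *Ctrl* lines and rose to 246, 307 and 318 in *Tet iTKO* lines. *Tet iTKO* line 1 was the lowest of its group and still above every *Ctrl* line. Group means were 200.3 ± 9.45 (SD, n = 3) and then 290.3 ± 38.8 (SD, n = 3), and the log2 fold change was 0.53 (SE 0.12, 95% interval 0.28 to 0.77, limma adjusted p = 0.00076). It was called in all 6 fits that left out a line and in all 11 other alternatives, down to 0.31. *Acvr1b* (ENSMUSG00000000532.8, chromosome 15 from 101174067 to 101213684), the type I receptor that phosphorylates the SMADs, was low. Its normalized counts were 3, 7 and 10 in *Ctrl* lines against 19, 9 and 8 in *Tet iTKO* lines, with overlapping groups, and no difference was detectable at this depth.

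Of the SMADs that the receptors activate, *Smad3* passed the test and *Smad2* did not. *Smad3* (ENSMUSG00000032402.6, chromosome 9 from 63646767 to 63757994) gave 23, 22 and 9 normalized counts in *Ctrl* lines, against 50, 45 and 45 in *Tet iTKO* lines. All *Tet iTKO* lines were above all *Ctrl* lines, of which line 3 was the lowest. The log2 fold change was 1.43 (SE 0.37, 95% interval 0.68 to 2.18, limma adjusted p = 0.0024), between means of 18.0 ± 7.81 (SD, n = 3) and 46.7 ± 2.89 (SD, n = 3). Few reads lie behind it, and fits that left out 1 line gave 1.02 to 1.65, with an adjusted p of at most 0.020 (limma). *Smad2* (ENSMUSG00000024563.9) gave 255, 196 and 219 normalized counts in *Ctrl* lines, against 239, 210 and 199 in *Tet iTKO* lines. Its groups overlapped, and the log2 fold change was -0.04 (SE 0.13, 95% interval -0.30 to 0.21, limma adjusted p = 0.82). The log2 ratio of *Smad2* to *Smad3* was 3.42, 3.10 and 4.46 in *Ctrl* lines, against 2.23, 2.20 and 2.12 in *Tet iTKO* lines. The groups did not overlap, and the difference in means of -1.47 had p = 0.1, again the smallest possible (exact two-sided permutation test).

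*Smad7* and *Skil* are feedback inhibitors, the first acting at the receptor and the second on SMAD complexes in the nucleus. *Smad7* (ENSMUSG00000025880.5) stood at 552, 545 and 519 normalized counts in *Ctrl* lines, against 559, 486 and 554 in *Tet iTKO* lines. The groups overlapped, and the log2 fold change was -0.02 (SE 0.08, 95% interval -0.19 to 0.15, limma adjusted p = 0.90). After the correction for GC content and length it was -0.32 (limma adjusted p = 0.0036), and with quantile normalization 0.06 (limma adjusted p = 0.63). *Skil* (ENSMUSG00000027660.9, chromosome 3 from 31095058 to 31122577) gave 54, 69 and 68 normalized counts in *Ctrl* lines, against 95, 90 and 84 in *Tet iTKO* lines. Its *Tet iTKO* lines were all above its *Ctrl* lines, but the log2 fold change of 0.49 (SE 0.21, 95% interval 0.07 to 0.92) missed the threshold after adjustment (limma adjusted p = 0.066). The log2 ratio of *Smad7* to *Smad2* plus *Smad3* averaged 1.16 ± 0.17 (SD, n = 3) over *Ctrl* lines and 1.02 ± 0.14 (SD, n = 3) over *Tet iTKO* lines, with overlapping groups (difference -0.14, p = 0.2, exact two-sided permutation test).

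In all, the groups did not overlap for 6 of the 9 tested genes with *Tet iTKO* higher, against 21.2% of all genes tested, and for 1, *Tdgf1*, with *Tet iTKO* lower, against 22.9% (44.1% in either direction).

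**Figure D2:**
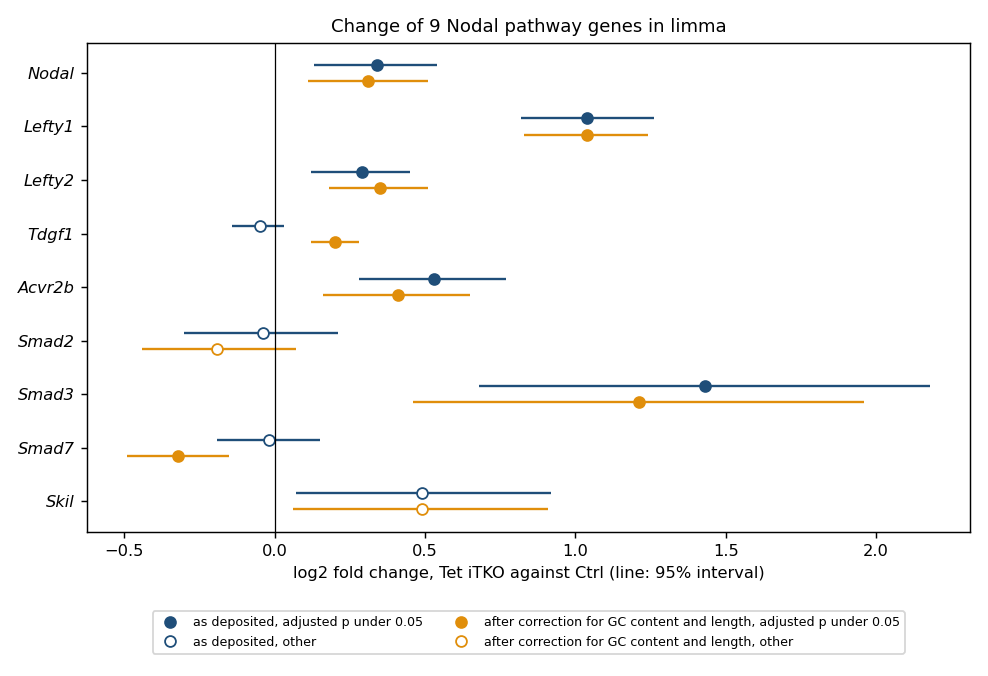
Log2 fold change of 9 Nodal pathway genes between 3 Tet iTKO and 3 Ctrl lines (x axis) with its 95% interval, in limma on the deposited values (blue) and after correction for GC content and length (orange), with filled points where the adjusted p was under 0.05. Nodal, Lefty1, Lefty2, Acvr2b and Smad3 are filled in both fits, while Tdgf1 moved from -0.05 to 0.20 and Smad7 from -0.02 to -0.32.

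**Figure D3:**
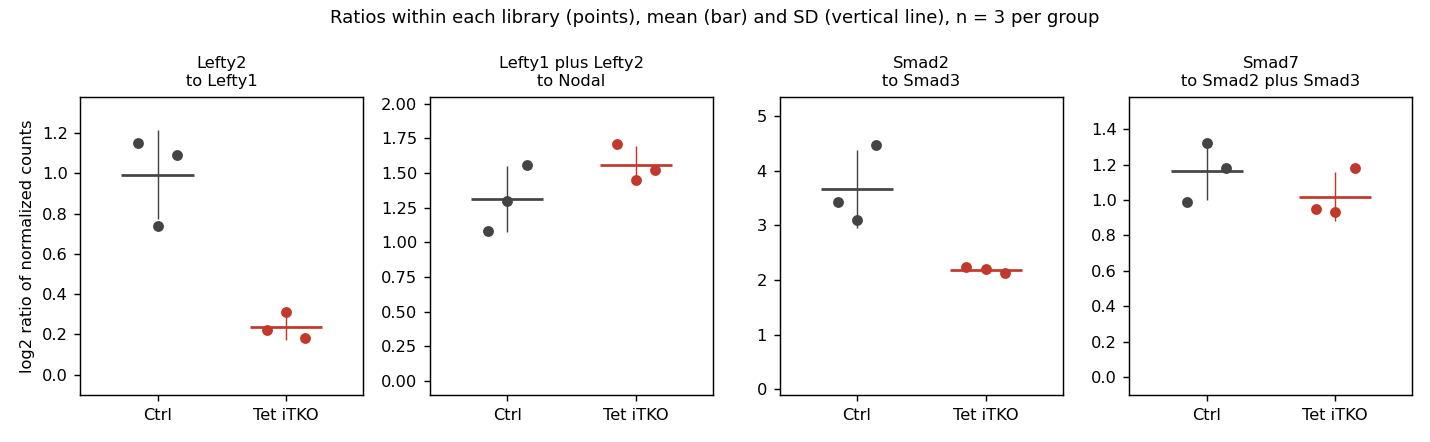
Log2 ratios of normalized counts within each library (y axis, its own scale in each panel) in 3 Ctrl and 3 Tet iTKO lines (x axis), with means as bars and 1 SD as vertical lines. The ratios of Lefty2 to Lefty1 and of Smad2 to Smad3 are lower in every Tet iTKO line, with differences in means of -0.75 and -1.47, and the other ratios overlap.

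To compare levels between genes, normalized counts were divided by the length in kb that the annotated exons of all transcripts of the gene cover together. In *Ctrl* lines, *Tdgf1* stood at 2210 ± 26.0 per kb (SD, n = 3), above every other gene of the 10. *Lefty2* followed with 201 ± 16.9 (SD, n = 3) per kb, then *Nodal* with 152 ± 14.8 (SD, n = 3) and *Lefty1* with 152 ± 27.9 (SD, n = 3), whose libraries overlapped. Next came *Smad7* with 119 ± 3.85 per kb (SD, n = 3), *Acvr2b* with 51.0 ± 2.41 (SD, n = 3) and *Smad2* with 25.4 ± 3.39 (SD, n = 3). The lowest were *Skil* with 6.57 ± 0.865 per kb (SD, n = 3), *Smad3* with 3.25 ± 1.41 (SD, n = 3) and *Acvr1b* with 1.51 ± 0.795 (SD, n = 3), and *Smad3* and *Acvr1b* overlapped. The order of the other neighbours held in every *Ctrl* library.

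In *Tet iTKO* lines, *Lefty1* took the second place with 309 ± 17.6 per kb (SD, n = 3), above *Lefty2* with 245 ± 4.79 (SD, n = 3) and *Nodal* with 192 ± 12.7 (SD, n = 3), without overlap between neighbours. *Smad3* reached 8.42 ± 0.521 per kb (SD, n = 3) and overlapped with *Skil* at 9.25 ± 0.568 (SD, n = 3). No other neighbours overlapped, from *Tdgf1* at 2130 ± 54.7 per kb (SD, n = 3) to *Acvr1b* at 2.72 ± 1.38 (SD, n = 3).

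Of 35 other genes of the pathway, 34 were matched and 24 were tested, 23 of them with a mean of at least 10 in both groups. In limma with Benjamini-Hochberg adjustment, 7 were higher and 2 lower in *Tet iTKO*, with a median log2 fold change of 0.31, against 16.4% and 18.4% of all genes and a median of 0.01. After the correction for GC content and length these were 4 higher and 2 lower, with a median of 0.16, and *Ski*, *Smurf1* and *Ppm1a* were the calls lost.

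Among ligands and secreted regulators, 1 of 7 tested was higher and 2 were lower. *Inhbb*, which encodes the beta B chain of Activin B, gave 129, 107 and 119 normalized counts in *Ctrl* lines, against 52, 73 and 43 in *Tet iTKO* lines. This was a log2 fold change of -1.10 ± 0.21 (SE, limma adjusted p = 1.0e-04). *Gdf3*, a Nodal-related ligand of pluripotent cells, fell from 1567, 1588 and 1710 to 1145, 1128 and 1082, a log2 fold change of -0.54 ± 0.06 (SE, limma adjusted p = 7.3e-09). Every *Tet iTKO* line was below every *Ctrl* line for both ligands, in contrast to *Nodal*. *Furin*, a protease that cleaves the Nodal precursor, had 45, 37 and 30 in *Ctrl* and 82, 57 and 130 in *Tet iTKO*, a log2 fold change of 1.18 ± 0.27 (SE, limma adjusted p = 0.00075), with *Tet iTKO* lines that differed widely among themselves. *Cer1*, a Nodal antagonist, *Cfc1*, the other co-receptor of this family, and *Acvr1c*, an alternative type I receptor, were listed at 0 in every library. No call was made among the 3 other receptors tested (*Acvr2a*, *Tgfbr1* and *Bambi*), with 0 also at an unadjusted p under 0.05.

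Of 14 SMAD partners and regulators of turnover, all tested, 6 were higher and 0 lower in limma, with 1 lower, *Drap1*, at an unadjusted p under 0.05. *Foxh1*, the DNA-binding partner through which SMAD2 and SMAD3 act on *Nodal* and *Lefty2*, gave 367, 349 and 368 normalized counts in *Ctrl* lines, against 471, 532 and 570 in *Tet iTKO* lines. The groups were well apart, and the log2 fold change was 0.53 ± 0.09 (SE, limma adjusted p = 1.9e-05). *Rnf111*, a ubiquitin ligase that removes SKI and the product of *Skil*, rose by 0.43 (SE 0.11, limma adjusted p = 0.0024), and the co-repressor *Tgif1* by 0.30 (SE 0.08, limma adjusted p = 0.0024), which lost its call without a variance trend (limma adjusted p = 0.082). The ubiquitin ligase *Smurf1* was higher by 0.57 (limma adjusted p = 0.0084), the co-repressor *Ski* by 0.47 (limma adjusted p = 0.036) and the SMAD phosphatase *Ppm1a* by 0.21 (limma adjusted p = 0.030), and all 3 calls were lost after the correction. Leaving out a line also ended the call of *Smurf1* without *Ctrl* line 1 (0.39), of *Ski* without *Ctrl* line 1 or 3 or *Tet iTKO* line 1 or 2 (0.31 to 0.45) and of *Ppm1a* without *Ctrl* line 1 or 2 or *Tet iTKO* line 1 or 2 (0.15 to 0.21). *Smad4*, the common partner of the SMADs, ranged from 107 to 217 in *Ctrl* and from 80 to 204 in *Tet iTKO*, an overlap that left its log2 fold change of -0.16 (95% interval -0.62 to 0.30) undecided (limma adjusted p = 0.62).

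Of 11 known targets outside these lists, 4 were tested and 1 was higher, against 16.4% of all genes. This was *T*, a mesoderm regulator, which passed the filter through the *Tet iTKO* group alone. Its normalized counts were 0, 12 and 1 in *Ctrl* lines against 24, 26 and 24 in *Tet iTKO* lines, and the log2 fold change was 3.11 ± 0.73 (SE, limma adjusted p = 0.00097). The size of this change rests on the *Ctrl* lines, with 2.33 without line 1 and 4.18 without line 2, and was 2.07 with a pseudocount of 4. The call was lost without a variance trend (limma adjusted p = 0.061). *Eomes*, a regulator of mesendoderm, gave 10, 27 and 23 normalized counts in *Ctrl* lines, against 31, 36 and 35 in *Tet iTKO* lines (log2 fold change 0.84, limma adjusted p = 0.091), and it was called once *Ctrl* line 2 was left out. Too low for the test, *Wnt3* was at 0 in all *Ctrl* libraries and at 11, 9 and 10 in *Tet iTKO*, and *Fgf8* at 0 in *Ctrl* and 13, 10 and 7 in *Tet iTKO*. Against a floor of 3 normalized counts per library, the *Tet iTKO* mean of each was 3.33-fold higher. In *Ctrl* libraries, 3 reads came to an estimated 3.14 to 3.29 normalized counts, so the fold against 3 reads is smaller. These 2 genes were named after their values were seen, and the values of both are close to the floor.

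**Figure D4:**
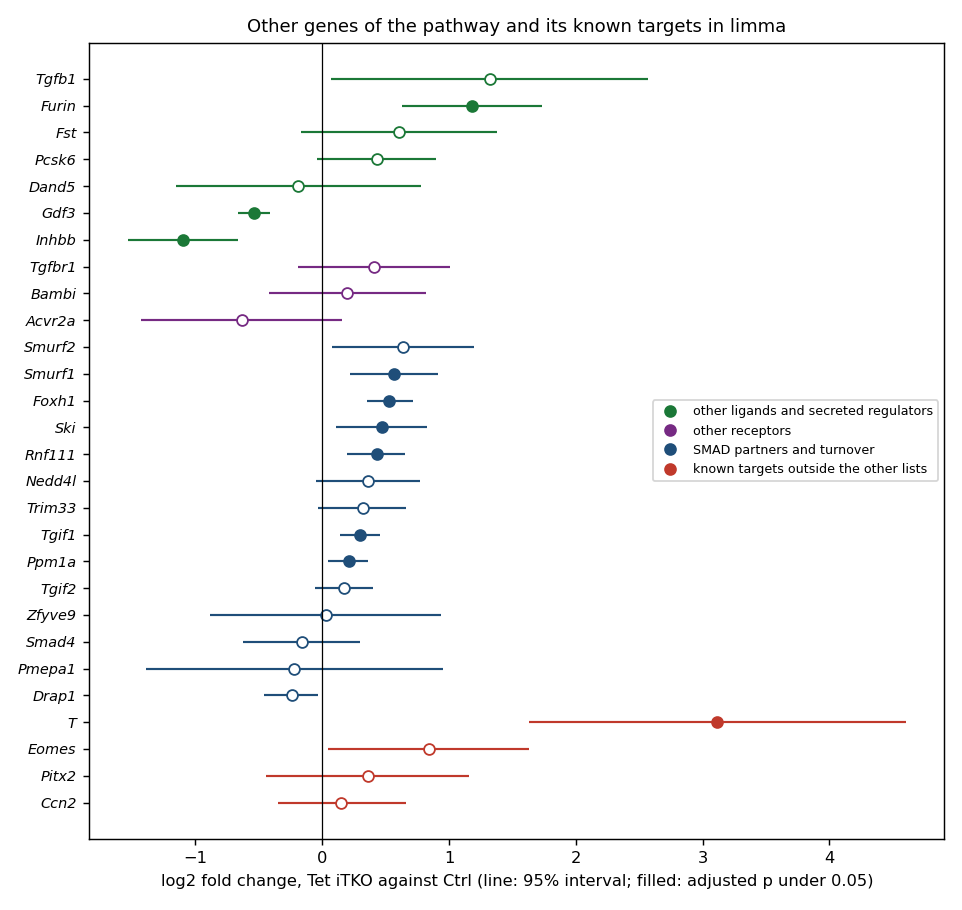
Log2 fold change between 3 Tet iTKO and 3 Ctrl lines (x axis) with its 95% interval for 24 other genes of the pathway and 4 of its known targets, coloured by list, with filled points where the limma adjusted p was under 0.05. Furin at 1.18 and Foxh1 at 0.53 are on the right and Gdf3 at -0.54 and Inhbb at -1.10 on the left, and T at 3.11 has the widest interval.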

How the data were processed

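RNA of 6 sorted mESC populations was measured. The authors made Smart-Seq2 libraries, used STAR on read pairs of 50 bases, kept alignments to a single place, counted them over genes in HTSeq 0.7.1 and divided by DESeq2 1.26.0 size factors (R 3.5.2, with mm9 per the submitters' processing notes). Rounding to whole numbers followed, so the deposited unit is a score, not a read count, and no count model was used. HTSeq was run with a strand setting although the kit keeps no strand. Reads of a gene and an antisense partner cannot be told apart. GENCODE M21 on GRCm38 paired 20775 of 22380 identifiers with a symbol, length and GC content.

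Groups were compared with limma 3.58.1 (R 4.3.3; lmFit, eBayes with a trend) on log2(normalized count + 1). Genes needed a mean of 10 or more over the 6 libraries, p-values were adjusted over all of them by the Benjamini-Hochberg method, and genes were called at an adjusted p under 0.05. The added 1 shrinks fold changes of low genes, but a difference in mean logs can also exceed the ratio of group means. For *T*, the log2 fold change of 3.11 was a larger change than the ratio of means, 5.69-fold. The correction subtracted a robust loess fit (span 0.3) on transcript GC content and log2 length. Alternatives were pseudocounts of 0.5 and 4, other filters (none, or a mean of 50), trimmed-mean rescaling, quantile normalization, no variance trend, a replicate block, a fold threshold and leaving out each line. The limma fit, with and without the correction, and the estimate of size factors were run on simulated data, with outcomes not given here. Reads per library were estimated from gaps among the rounded values, and floors cover counting error only. Ratios were compared with exact permutation tests. Windows of 50 bases were matched exactly after a BLAST 2.17.0 search. The 10 genes are all named, as are called genes of the other lists. Genes and lists were chosen with earlier results of these data known. Same-numbered lines did not deviate together (correlations 0.000706, -0.00543 and -0.00314).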

Additional observations from a re-analysis of the deposited data

How the results depend on the processing

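Across alternatives other than a fold threshold, the count of called genes among the Nodal pathway genes was 4 to 7. It ranged from 4 to 5 with each line left out in turn, was 5 with the replicate block and 2 with a log2 fold change of at least 1. Under that threshold 2 other pathway genes and 658 of all genes were called. Without a variance trend 2292 of all genes and 0 known targets were called, with 1 target, *T*, at an unadjusted p under 0.05 (limma). Called targets numbered 3 without a filter (*T*, *Wnt3* and *Fgf8*), 0 of 1 tested at a mean of at least 50 (0 also at an unadjusted p under 0.05) and 1 to 2 with lines left out (2 without *Ctrl* line 2). The fit reported called 1731 genes higher and 1934 lower, against 1014 and 2068 with the correction by ordinary least squares, which was chosen after seeing the data.

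The sign of *Tdgf1* turned with quantile normalization (0.13), with the correction (0.20, and 0.20 with the replicate block too) and with ordinary least squares (0.16). *Smad2* ranged from -0.13 to 0.06 and *Smad7* from -0.05 to 0.05 with lines left out, and *Smad7* was 0.06 with quantile normalization. The causes were not tested. The replicate block, under which 3742 of all genes were called, changed no call of the 10 genes. Without a variance trend, *Skil* was called (limma adjusted p = 0.041) and *Nodal* and *Lefty2* were not. Few reads lie behind *Acvr1b* and *Smad3*.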
